A study of Mus musculus with 132 samples.

Results

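The 6 libraries described here compare P1-CTCF-KO with wild-type Flk1+ mesoderm by poly(A)-minus RNA-seq, and they were taken from 132 samples by genotype, stage and assay alone. There were 3 P1-CTCF-KO libraries (clones E7.1, E7.2 and E9.1) and 3 wild-type libraries (C8.1, C6.1 and B9.3). All cells were derived from the male mouse embryonic stem cell line E14-TG2a (strain 129/Ola) and were collected on day 4 of a serum-free differentiation with BMP4, bFGF and Activin A, by sorting cells that carried Flk1, the receptor encoded by Kdr. P1-CTCF-KO clones carry a homozygous CRISPR-Cas9 deletion of the CTCF site next to P1, the distal Runx1 promoter. The study made its P1-CTCF-KO sub-clones in 2 targeting events, and the clone names group E7.1 with E7.2, so these 3 libraries may stand for 2 deletions only. The 3 P2-CTCF-KO mesoderm libraries, in which the CTCF site at the proximal promoter was deleted, were kept in the same fit as a yardstick, and 12 libraries of hematopoietic progenitor cells (HPCs, day 7) gave values at a later stage.

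CTCF is a zinc finger protein that binds an asymmetric motif and stops loop extrusion by cohesin, which places it at many boundaries of chromatin domains. Runx1 encodes the transcription factor needed for hematopoietic cells to form from hemogenic endothelium, and it is read from 2 promoters, the distal P1 and the proximal P2. Flk1+ mesoderm forms from the primitive streak, loses streak genes such as T and Eomes, and gives rise to endothelial, blood and cardiac precursors.

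The sequence around which the comparison is built is shown first because it locates the deleted site. The nearest upstream CTCF peak of 416B cells, a mouse hematopoietic progenitor line, begins 1959 bases from the annotated distal Runx1 start (chr16:92826311, mm9, minus strand) and lies outside every annotated Runx1 transcript. It covers 231 bases at chr16:92828270-92828500 and is printed on the plus strand. Capitals mark the match to a core CTCF motif with fixed bases at positions 1, 2, 5, 6, 9, 10 and 11 of the capitals and any base between them.

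P1 CTCF peak: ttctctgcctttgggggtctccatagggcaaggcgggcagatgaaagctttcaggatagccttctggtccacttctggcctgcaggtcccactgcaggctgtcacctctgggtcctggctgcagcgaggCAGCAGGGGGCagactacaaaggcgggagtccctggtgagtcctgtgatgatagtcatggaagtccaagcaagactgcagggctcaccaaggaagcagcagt

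The match is the only one on either strand of this peak and lies at chr16:92828399-92828409. The motif, with those bases fixed, occurred on at least 1 strand in 52.3% of the 44513 windows of 231 bases centred on 416B CTCF peaks. Wild-type mesoderm had an ATAC-seq peak of 171 bases (chr16:92828324-92828494) that spans the match, whereas the 69-base ATAC-seq peak of wild-type HPCs (chr16:92828412-92828480) began just beside it. Per the study, the ATAC-seq cells were a reporter derivative of the stem cell line, not the clones compared here. They carried a Venus reporter at Runx1 and a Runx1 enhancer reporter transgene. The HPC peaks came from 1 experiment, and a difference between the stages was not tested. The gene table holds 1 count per gene and library and cannot separate transcripts of P1 from those of P2.

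The libraries held 18233679 to 21634629 counts, but 95.5% to 98.5% of these fell on 193 entries of ribosomal RNA, of genes listed at several loci or of spans over 2500000 bases, above all Rn45s, the precursor of ribosomal RNA. The remaining genes received 329588 counts in wild-type C6.1, the shallowest library, 914479 in P1-CTCF-KO E7.2, the deepest, and 596098 to 709925 in the other 4. Values below are CPM after TMM scaling, so 1 CPM stands for 11 to 34 reads depending on the library. Library depth did not follow genotype.

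The summed level over 9 markers of the sorted population was 34.2 to 41.8 CPM in P1-CTCF-KO and 25.1 to 42.0 CPM in wild type. Kdr was the largest part of each sum, whereas Mesp1 had 0 counts in C8.1 and Etv2 had 1 in E7.2. Kdr, the gene of the sorting marker, measured 21.4, 18.3 and 28.5 CPM in E7.1, E7.2 and E9.1, and 27.1, 19.4 and 12 CPM in B9.3, C6.1 and C8.1. Of the endoderm markers, Foxa2, Afp, Ttr and Hnf4a had at most 1 count in any of the 6 libraries, and the neural gene Pax6 had 0. The endoderm and endothelial factor Sox17 had 23 counts in E9.1, 26 in B9.3 and at most 5 elsewhere. The pluripotency genes Zfp42 and Esrrb had 26 counts each in E7.2 and at most 6 in the other 5 libraries. E7.2 also had the lowest sum of 4 Y-linked genes, 1.47 CPM against 4.49 to 13.9 CPM in the other 5, the next lowest being C6.1. The part of these RNAs in the results was not tested. Fewer cells of a type and less RNA per cell cannot be told apart in bulk libraries.

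No gene was called different between P1-CTCF-KO and wild-type mesoderm. Of 8778 genes tested, 0 (0%) passed an adjusted p under 0.05 with a fold change over 2 by edgeR's quasi-likelihood test, and 168 (1.91%) had an unadjusted p under 0.05, of which 65 (0.740%) were higher and 103 (1.17%) lower in P1-CTCF-KO. DESeq2 also called 0 genes, with 73 at an unadjusted p under 0.05. A threshold of 0.05 passes a share near 0.05 of genes by chance where nothing differs, more than the 1.91% seen by edgeR. In the same edgeR fit P2-CTCF-KO against wild type gave 3 calls (0.0342%), Ikzf2, Cbfa2t3 and Prkar2b, all lower, and 1408 genes at an unadjusted p under 0.05, and DESeq2 called 166. P1-CTCF-KO against P2-CTCF-KO gave 0 calls by edgeR (0%), 987 genes at an unadjusted p under 0.05, and 98 calls by DESeq2. The comparisons with wild type share its 3 libraries. The study counts the 3 libraries of a genotype as independent experiments, each from a clone of its own, so spread between clones and between differentiations cannot be told apart.

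The fold changes themselves were small. Over 8657 tested genes outside the entries set aside, the median size of the log2 fold change was 0.18 for P1-CTCF-KO and 0.32 for P2-CTCF-KO, and 89 genes (1.03%) against 848 (9.80%) were more than 2-fold from wild type. The 3 libraries of P1-CTCF-KO and of wild type did not overlap for 577 of the 8778 genes (6.57%), 307 higher (3.50%) and 270 lower (3.08%). With 3 libraries a group some genes do not overlap by chance, and that share was not computed. For P2-CTCF-KO and wild type, 1697 genes (19.3%) did not overlap.

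Libraries of the same genotype lay as far apart as libraries of different genotypes. Distance was taken as the root mean square difference in log2 CPM over the 500 most variable genes. Within P1-CTCF-KO the 3 distances were 1.04, 1.28 and 1.97, and within wild type they were 1.33, 1.93 and 2.71. The 9 distances from P1-CTCF-KO to wild type ran from 0.837 to 2.39 with a median of 1.45. The closest pair of all 6 libraries was E7.1 with wild-type C8.1 (0.837), and the nearest library to E9.1 was wild-type B9.3 (0.943). E7.2 lay nearest to wild-type C8.1 (0.894) and C6.1 (0.952), not to E7.1 (1.28), with which it shares a clone name. Only 10 genes differed by more than 4-fold between E7.1 and C8.1, 12 between E7.2 and C8.1 and 24 between E9.1 and B9.3, whereas 213 did so between E7.2 and E9.1 and 410 between B9.3 and C6.1.

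**Figure D1:**
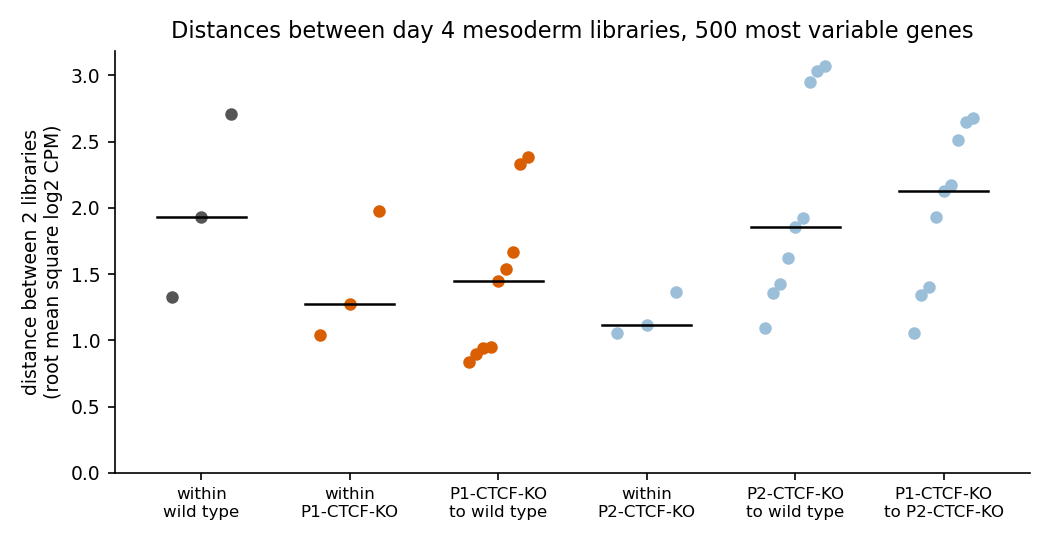
Each point is the distance between 2 day 4 mesoderm libraries (root mean square difference of log2 CPM over the 500 most variable genes), grouped by the genotypes of the pair, and each line is the median of the group. The distances from P1-CTCF-KO to wild type (0.837 to 2.39) overlap those within wild type (1.33 to 2.71) and within P1-CTCF-KO (1.04 to 1.97).

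The genes that set the libraries apart included those of the passage from streak to hemato-endothelial mesoderm. For each library the median of log2 CPM over a gene list was taken relative to the mean of the 6 libraries. The streak list had 13 tested genes of 23, and its median was -0.06, 0.97 and -0.56 in E7.1, E7.2 and E9.1, and -1.11, 1.17 and -0.53 in B9.3, C6.1 and C8.1. The hemato-endothelial list, 35 tested genes of 50, was low where the streak list was highest and high where it was lowest, at 0.29, -1.06 and 0.98 in P1-CTCF-KO, and 1.34, -1.04 and -0.41 in wild type. Each genotype therefore held 1 library with high streak and low hemato-endothelial RNA (E7.2 and C6.1) and 1 with the reverse (E9.1 and B9.3). C6.1 was the shallowest and E7.2 the deepest library, and the part of depth was not tested. All 3 P2-CTCF-KO libraries lay outside this range, at 2.24 to 2.58 for the streak list and -2.34 to -2.06 for the hemato-endothelial list.

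**Figure D2:**
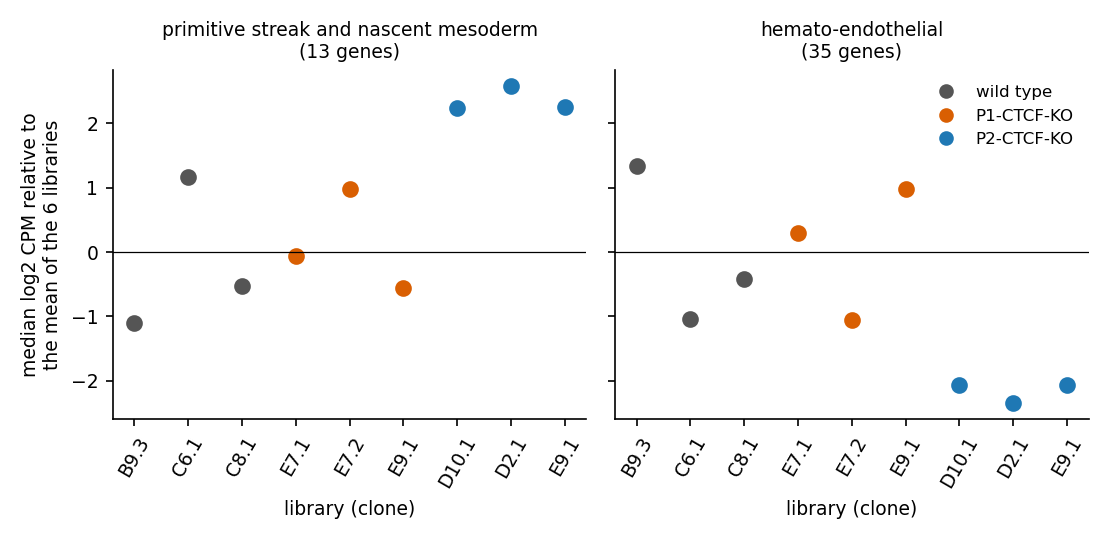
Each point is the median log2 CPM of a gene list in 1 library, relative to the mean of the 6 wild-type and P1-CTCF-KO libraries, for 13 streak genes (left) and 35 hemato-endothelial genes (right). Wild type and P1-CTCF-KO cover the same range, with E7.2 and C6.1 at one end and E9.1 and B9.3 at the other, and the P2-CTCF-KO libraries lie beyond it.

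Single genes of these lists showed the same spread. T, the brachyury factor of the streak, had 4, 34 and 6 counts in E7.1, E7.2 and E9.1, and 3, 16 and 5 in B9.3, C6.1 and C8.1. Eomes, a T-box factor of early mesoderm, measured 2.28, 3.26 and 1.29 CPM against 0.582, 4.14 and 1.19 CPM (log2 fold change 0.38 ± 0.61 SE, 95% interval -0.96 to 1.73). The groups overlapped for both genes. Among endothelial genes, Pecam1, an adhesion molecule, measured 2.37, 0.853 and 6.26 CPM in P1-CTCF-KO and 7.70, 0.264 and 1.96 CPM in wild type. Fli1, an ETS factor of endothelium, ranged from 3.68 to 17.4 CPM within P1-CTCF-KO and from 2.29 to 22.7 CPM within wild type. Igf2, an imprinted growth factor, ranged from 35.8 to 190 CPM and from 32.0 to 177 CPM. The receptor phosphatase Ptprm reached 56.7 CPM in B9.3 and 4.29 to 21.4 CPM in the other 5. Mest, an imprinted mesoderm gene, ranged from 11.9 to 35.1 CPM within P1-CTCF-KO and from 7.04 to 36.4 CPM within wild type. Filip1l, the last of the 5 genes with the largest range, stood at 73 CPM in C6.1 and 11.1 to 26 CPM in the other 5. The groups overlapped for all 5. For these genes the intervals were wide: Erg, an ETS factor of endothelium, allowed log2 fold changes of -2.64 to 1.72, Meis1, a homeobox cofactor, -2.67 to 1.12, and Flt1, a VEGF receptor, -1.18 to 1.23. Etv6, an ETS repressor, measured 13.5, 7.50 and 13.7 CPM against 20.8, 8.1 and 11.6 CPM (-0.97 to 0.50). Tal1, a bHLH factor of blood and endothelium, and Itga2b, which encodes CD41, allowed -1.03 to 1.2 and -0.74 to 1.19. The pluripotency genes Pou5f1, Sox2 and Nanog and the blood factor Gfi1b had at most 7 counts in any of the 6 libraries and were not tested. With the difference of both list scores as a covariate, an alternative chosen after seeing the data, edgeR still called 0 genes, with 312 at an unadjusted p under 0.05.

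Runx1, whose promoter lost the CTCF site, had 161, 274 and 54 counts in E7.1, E7.2 and E9.1, and 69, 104 and 258 in B9.3, C6.1 and C8.1. In CPM these were 6.68, 8.06 and 2.58 against 2.87, 9.15 and 11 CPM. The lowest values were those of E9.1 and B9.3, 1 clone of each genotype, and the groups overlapped. The log2 fold change was -0.39 ± 0.56 (SE), with a 95% interval of -1.62 to 0.84, so a 2-fold decrease was not excluded. Against P2-CTCF-KO the log2 fold change was 0.57 ± 0.57 (SE).

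All 5 tested genes of the RUNX family and its partners were lower in P1-CTCF-KO, with a median log2 fold change of -0.39, and none had an unadjusted p under 0.05 in the edgeR fit. Of all 8657 genes, 50.3% were lower, and of the 598 that span over 200 kb, as Runx1 does, 86.6% were lower. The library medians were 0.0075, -0.43 and -0.02 in E7.1, E7.2 and E9.1, and 0.30, 0.0069 and 0.17 in B9.3, C6.1 and C8.1. The groups overlapped through E7.1 and C6.1 alone. Runx1t1, the ETO corepressor gene, measured 3.49, 1.71 and 3.49 CPM against 6.37, 2.73 and 4.34 CPM (log2 fold change -0.67 ± 0.37 SE). Cbfa2t3, a related corepressor, measured 2.12, 1.32 and 2.01 CPM against 2.62, 2.46 and 2.38 CPM (-0.47 ± 0.25 SE). It was the only one of the 5 whose libraries did not overlap (20%, beside 6.63% of all 8657 genes). Cbfb, the partner subunit of RUNX proteins, and Cbfa2t2, a further corepressor, had log2 fold changes of -0.18 and -0.03. In HPCs the median of the 5 genes was 0.14. Of the Ikaros zinc finger genes that the study follows, Ikzf2 measured 2.70, 1.79 and 2.20 CPM against 3.16, 2.46 and 4.09 CPM (interval -1.14 to 0.01), and Ikzf1 0.623, 1.32 and 0.191 CPM against 0.333, 1.5 and 2.34 CPM (-2.37 to 0.60). Both overlapped.

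Of 30 table entries within 1 Mb of the Runx1 span, 13 had enough counts to be tested, and 8 of these had intervals inside 2-fold. All 8 lie outside the chromatin domain that the study describes for Runx1, and among them Slc5a3 and Mrps6 have overlapping spans. Inside that domain only Runx1 (-1.62 to 0.84) and Setd4 (-1.07 to 1.30) were tested, and neither interval lay inside 2-fold. Rcan1, the calcineurin inhibitor gene on the far side of Clic6, measured 0.706, 0.794 and 1.0 CPM against 0.915, 0.704 and 1.06 CPM, an interval of -0.78 to 0.50. Setd4, a methyltransferase gene upstream of Runx1, had 4 to 15 counts in P1-CTCF-KO and 3 to 9 in wild type, too few to bound a 2-fold change. Cbr1 and Clic6 did not reach the count minimum. Gart, an enzyme of purine synthesis at the edge of the window, was the only one of the 13 whose libraries did not overlap: it measured 4.98, 4.53 and 4.44 CPM against 2.54, 3.17 and 4.17 CPM (log2 fold change 0.50 ± 0.22 SE, 7.69% of the 13 genes against the background of 6.57%). The median over the 13 genes was -0.08.

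The size of change that these libraries can exclude was read from the 95% interval of each log2 fold change. For 5282 of 8778 genes (60.2%) the interval lay inside 2-fold in both directions, and for 1460 (16.6%) it lay inside 1.5-fold. For the median gene the interval reached at most 1.85-fold, for the most precise 10% of genes 1.44-fold, and for the least precise 10% more than 3.02-fold. The share of genes followed depth. Of 2518 genes with a mean under 20 counts per library, 21.2% excluded a 2-fold and 0% a 1.5-fold change. At 50 to 100 counts the shares were 84.8% and 28.5%, and above 200 counts they were 86.1% and 46.5%. Single intervals are not adjusted for the number of genes. An equivalence test at an adjusted p under 0.05 kept 5709 genes at 2-fold and 0 at 1.5-fold. Its p-value is the larger of 2 one-sided tests, before adjustment a looser criterion than the 95% interval. The counts 5709 and 5282 are therefore not at a like threshold.

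**Figure D3:**
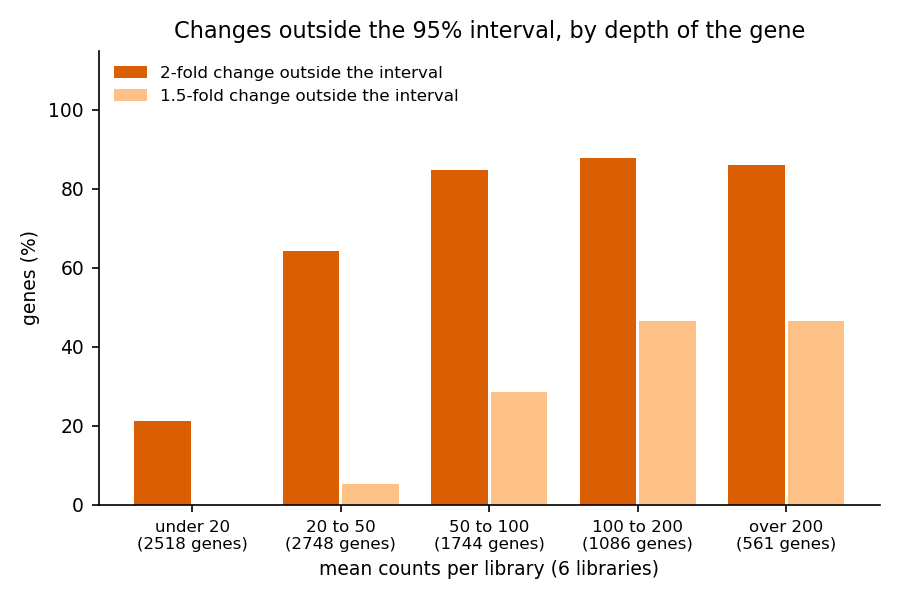
Bars give the percentage of tested genes whose 95% interval of the log2 fold change, P1-CTCF-KO minus wild type, lies inside a 2-fold (dark) or 1.5-fold (light) change, by mean counts per library over the 6 libraries. The share rises from 21.2% to 84.8% for a 2-fold change between genes under 20 counts and genes of 50 to 100 counts, and then stays level.

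The 10 genes with the narrowest intervals were housekeeping and regulatory genes of 7 to 28 CPM. Ubr4, a ubiquitin ligase, measured 24.9, 24.6 and 27.6 CPM against 25.1, 26.6 and 26.6 CPM (interval -0.32 to 0.28). Others were Xpo7, Pds5b, Dlg1, Ep400, Ubap2l, Sf3b3, Ddx17 and Uck2, with log2 fold changes from -0.24 to 0.13. Ctcf itself measured 5.81, 5.03 and 6.40 CPM against 6.45, 6.6 and 5.40 CPM, with an interval of -0.46 to 0.27 that excludes a 1.5-fold change. Of 16 tested genes for CTCF and the cohesin complex, 12 excluded a 2-fold and 8 a 1.5-fold change. The largest difference among them was that of Rad21, the cohesin kleisin subunit, at 7.02, 7.50 and 7.69 CPM against 5.87, 5.19 and 5.70 CPM (log2 fold change 0.40 ± 0.15 SE). Its groups did not overlap. Of the 16 genes, 18.75% did not overlap, 2 higher and 1 lower in P1-CTCF-KO, beside 6.63% of all 8657 genes.

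**Figure D4:**
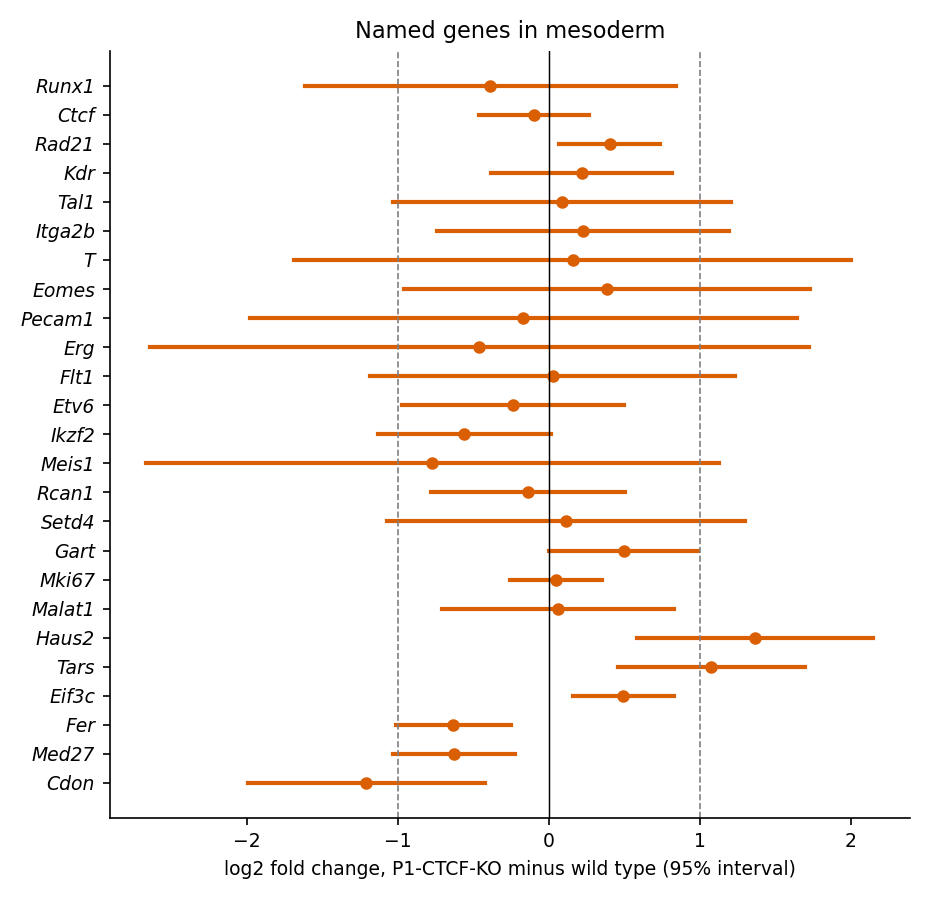
Points are log2 fold changes, P1-CTCF-KO minus wild type (3 libraries each), and bars their 95% intervals from the edgeR fit, with dashed lines at 2-fold. The intervals of Ctcf, Rad21, Mki67 and Kdr lie inside 2-fold, whereas those of T, Erg, Meis1 and Pecam1 extend past it on both sides.

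The direction of the difference varied with gene length. Among 598 tested genes whose span exceeds 200 kb, 518 were lower and 80 higher in P1-CTCF-KO, with a median log2 fold change of -0.31. The median was -0.09 for 2491 genes of 50 to 200 kb, 0.05 for 4305 genes of 10 to 50 kb and 0.11 for 1263 genes up to 10 kb, beside -0.0023 over all 8657. By library, the median of the longest class was -0.00, -0.08 and -0.26 in E7.1, E7.2 and E9.1, and 0.22, -0.04 and 0.18 in B9.3, C6.1 and C8.1. C6.1, the shallowest library, lay below E7.1, so the groups overlapped by 1 library. The mean of the library medians was -0.12 ± 0.13 (SD, n = 3) in P1-CTCF-KO and 0.12 ± 0.14 (SD, n = 3) in wild type. The P2-CTCF-KO libraries measured -0.01, -0.60 and -0.46 on the same scale. In HPCs, where other libraries of the same clones were compared, it was 0.19 over 468 of these genes, in the other direction. Counts cover exons and introns together. The part of depth in this difference was not tested.

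**Figure D5:**
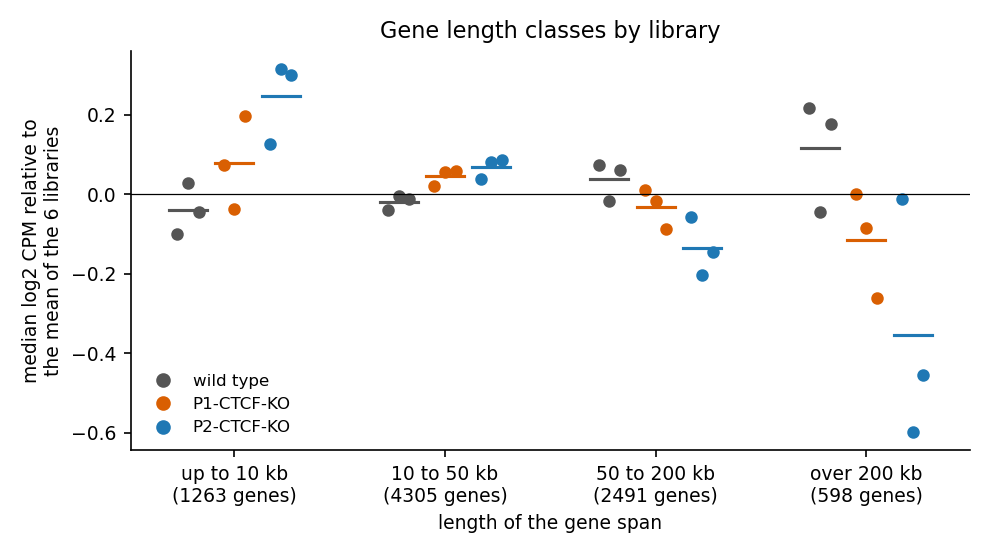
Each point is the median log2 CPM of a length class in 1 library relative to the mean of the 6 wild-type and P1-CTCF-KO libraries, and each line is the mean of a genotype. For spans over 200 kb the P1-CTCF-KO points (-0.26 to -0.00) lie below 2 of the 3 wild-type points, and for spans of 10 to 50 kb all 3 lie above wild type.

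Length also differed among the genes with the smallest p-values. Of 102 lower genes at an unadjusted p under 0.05 outside the entries set aside, 31 spanned over 200 kb and 49 spanned 50 to 200 kb, whereas of 65 higher genes 0 and 2 did. Of all 8657 genes, 598 and 2491 fell in these classes. The 102 entries are not 102 loci, since merging overlapping spans left 81, against 65 for the 65 higher genes. The gamma-protocadherin cluster on chromosome 18 (chr18:37112301-38001526) alone gave 22 entries. These genes encode cell adhesion molecules, and their spans are nested and end together, so they were read as 1 measurement. Its longest entry, Gm37013, measured 12.6, 11.8 and 13.8 CPM against 18.1, 17.1 and 19.5 CPM (log2 fold change -0.52 ± 0.20 SE), with no overlap. With these 22 entries set aside, 28 and 32 of the remaining 80 lower genes spanned over 200 kb and 50 to 200 kb, and chromosome 18 held 4 lower genes at an unadjusted p under 0.05 in place of 26. Chromosome medians ran from -0.06 (chromosome 18) to 0.06 (chromosome 19) over 20 chromosomes, with Y set aside. Without the 22 entries the median of chromosome 18 was -0.045, above that of chromosome 12 (-0.060).

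Of the genes whose libraries did not overlap, the 8 higher with the smallest p-values included 3 that encode parts of protein synthesis, Tars, Eif3c and Rpl35a. Tars, threonyl-tRNA synthetase, measured 1.66, 1.79 and 1.48 CPM against 0.915, 0.616 and 0.766 CPM (log2 fold change 1.08 ± 0.28 SE). Eif3c, a subunit of translation initiation factor 3, measured 5.69, 6.2 and 5.40 CPM against 3.91, 4.05 and 4.34 CPM (0.49 ± 0.15 SE). Rpl35a, a protein of the large ribosomal subunit, had 24, 37 and 19 counts against 9, 7 and 15, and Slc1a5, a glutamine transporter, 21, 32 and 31 against 14, 6 and 11. These 4 genes span 4 to 19 kb, and none passed the adjusted threshold. Haus2, a subunit of the augmin complex of the mitotic spindle, had 22, 28 and 18 counts against 9, 3 and 8 (log2 fold change 1.36 ± 0.36 SE, interval 0.58 to 2.15). Isl1, a LIM-homeodomain factor of cardiac progenitors, had 17, 17 and 12 counts against 2, 2 and 5 (1.94 ± 0.63 SE). Tex14, a gene of germ cell bridges, and Sall1, a zinc finger repressor, completed the 8, with log2 fold changes of 1.76 and 0.69.

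Of the 8 lower genes, 7 spanned over 50 kb. Fer, a tyrosine kinase gene of 276 kb, measured 3.61, 3.41 and 3.11 CPM against 5.99, 4.49 and 5.15 CPM (log2 fold change -0.63 ± 0.17 SE). Med27, a Mediator subunit gene of 178 kb, measured 1.99, 1.76 and 1.77 CPM against 3.04, 2.82 and 2.68 CPM (-0.63 ± 0.18 SE). Cdon, a hedgehog co-receptor, had 19, 43 and 8 counts against 48, 18 and 51, with CPM of 0.382 to 1.26 against 1.58 to 2.17 (-1.21 ± 0.36 SE). The atypical cadherin Fat3, of 592 kb, measured 3.24, 2.50 and 2.72 CPM against 4.41, 3.52 and 6.38 CPM. Nr1d2, a nuclear receptor of the circadian clock, Tom1l2, an endosomal adaptor, Diaph1, an actin-nucleating formin, and Lmbrd1, a lysosomal vitamin B12 transporter, had log2 fold changes of -0.82 to -0.60. For 11 of these 16 genes HPCs gave a value as well, and 1 of 11, Tom1l2, had the same sign there, beside 44.6% of the 6730 genes tested at both stages. These 16 were picked by their mesoderm values. Of all 130 genes at an unadjusted p under 0.05 in mesoderm that were also tested in HPCs, 62 (47.7%) kept their sign, near that share. In HPCs edgeR called 0 of 7422 genes between P1-CTCF-KO (3 libraries) and wild type (4 libraries of 3 clones), with 260 at an unadjusted p under 0.05.

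Among pathways and gene classes, 28 of 35 lists had at least 5 tested genes, and for 4 of the 28 the library medians of P1-CTCF-KO lay above those of wild type without overlap. How many lists would do so by chance was not tested. Single genes did not overlap in 5.88% (cell cycle), 13.8% (tRNA synthetases), 6.67% (cardiac and paraxial) and 4.55% (FGF and VEGF) of cases, beside 6.63% of all 8657 genes. No list lay wholly below, with the RUNX family and partners overlapping through E7.1 and C6.1 alone. Beside each count stands the share of all 8657 genes that were higher in P1-CTCF-KO, 49.7%. That share fell with gene length, from 65.7% of genes up to 10 kb to 13.4% of genes over 200 kb. The lists were not matched for length, and the part of length in their counts was not tested.

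Of 51 tested cell cycle and replication genes 42 (82.4%) were higher, with a median log2 fold change of 0.17. The library medians were 0.09, 0.04 and 0.12 in P1-CTCF-KO and -0.06, -0.02 and -0.06 in wild type. Mki67, the proliferation antigen, measured 21.6, 22.3 and 22.1 CPM against 21.1, 22.9 and 20.0 CPM, whereas Kif20a, a kinesin of cytokinesis, measured 2.32, 2.18 and 2.15 CPM against 1.29, 1.5 and 1.87 CPM. In HPCs the median of 50 of these genes was -0.47.

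For tRNA synthetases and the amino acid stress response, 23 of 29 genes (79.3%) were higher, with a median of 0.16 and library medians of 0.08, 0.10 and 0.14 against -0.19, 0.01 and 0.02. Eprs, glutamyl-prolyl-tRNA synthetase, measured 9.63, 9.79 and 9.46 CPM against 7.70, 9.24 and 9.36 CPM. Vars, valyl-tRNA synthetase, overlapped, with a log2 fold change of -0.01.

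The cardiac and paraxial list had 12 of 15 genes higher (80%), with a median of 0.31 and library medians of 0.54, -0.10 and 0.02 against -0.36, -0.20 and -0.21. Beside Isl1, Tbx20, a cardiac T-box factor, measured 23.1, 21.3 and 10.4 CPM against 11.6, 16 and 17.6 CPM, with overlap. Pdgfra, a receptor of paraxial and cardiac mesoderm, measured 5.73, 5.85 and 5.11 CPM against 3.95, 6.34 and 4.17 CPM, also with overlap. For FGF and VEGF signalling, 15 of 22 genes were higher, with a median of 0.05. Fgf8, a ligand of the streak, had 3, 12 and 4 counts against 1, 2 and 1, with overlap in CPM (E7.1 at 0.125, C6.1 at 0.176), and Vegfa, the ligand of Flk1, measured 2.70, 1.68 and 2.68 CPM against 1.46, 0.880 and 1.96 CPM.

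Cytoplasmic ribosomal protein genes were higher in 57 of 71 cases (80.3%), with a median of 0.19, but their library medians overlapped, at -0.00, 0.21 and 0.02 against -0.43, 0.20 and -0.03, with B9.3 the lowest. Rps4x measured 1.83, 2.18 and 1.48 CPM against 0.874, 1.32 and 1.15 CPM, whereas Rpl4 measured 8.39, 12.4 and 9.27 CPM against 7.32, 11.4 and 8.17 CPM. Reads of ribosomal protein genes can be shared with processed copies, so single members are uncertain. Glycolysis and hypoxia genes were higher in 26 of 30 cases (86.7%, median 0.18), again with overlap, since C6.1 was low (-0.45) and C8.1 high (0.19).

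Extracellular matrix genes leaned the other way, 26 of 33 lower with a median of -0.11, and their library medians were 0.63 in B9.3 and 0.42 in E9.1 against -0.40 in C6.1 and -0.32 in E7.2. Fn1, fibronectin, reached 301 CPM in C6.1 and 119 to 213 CPM in the other 5. Replication-dependent histone genes, whose RNAs lack poly(A) tails, were lower in 40 of 52 cases with a median of -0.15, and their library medians spread from -0.61 in E7.2 to 0.44 in C6.1.

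Other signalling lists were mixed. For BMP, Nodal and TGF-beta 13 of 32 genes were higher (median -0.03), for Wnt 15 of 30 (median -0.01) and for Notch 10 of 16 (median 0.16). Wnt5a, a ligand of mesoderm outgrowth, measured 9.13, 5.79 and 6.40 CPM against 2.45, 3.78 and 6.04 CPM (log2 fold change 0.79 ± 0.32 SE), with overlap. Of imprinted genes 19 of 33 were higher (median 0.05), of p53 targets 12 of 18 (median 0.09), of Polycomb and DNA methylation genes 15 of 35 (median -0.02) and of Zfp zinc finger genes 117 of 221 (median 0.02). Among nuclear RNAs Malat1 stood at 198, 344 and 260 CPM against 249, 217 and 305 CPM, and Rpph1, the RNA of RNase P, at 186, 133 and 317 CPM against 214, 146 and 193 CPM.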

How the data were processed

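Poly(A)-minus RNA was prepared with a directional kit. The labels list ribosomal RNA removal, which the study's methods give for undifferentiated and 416B cells alone. Per the labels, reads were mapped to mm9 with STAR and counted with featureCounts. PCR duplicates were removed, and the deposited values are raw counts per gene over exons and introns. The strand setting and annotation are not given in the sources used here. The deposited peak files hold positions of peaks called by MACS2 on merged libraries. Genes kept by filterByExpr (minimum count 10) were fitted with edgeR 4.0.16 (TMM, quasi-likelihood, 9 mesoderm libraries, genotype as the only term), in R 4.3.3. A call needed a Benjamini-Hochberg adjusted p under 0.05 and more than 2-fold difference. Intervals are 95% t intervals of the unshrunken log2 fold change. DESeq2 1.42.0 and limma 3.58.1 were alternatives, with RLE size factors, no filter, fewer libraries, fewer entries and each library left out. Distances used log2 CPM with a prior count of 2. The fit was tested on simulated data in which all genes had the same dispersion setting and varied independently of each other. That test does not cover spread that many genes share, as in the streak and hemato-endothelial lists. Intervals cover the spread between libraries, and no replicate pair agreed within sampling noise.

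The members and gene lists were chosen with earlier results of these data known. Eligible to be named were Runx1 and the genes the study follows in mesoderm, the genes beside Runx1, Ctcf, the 8 higher and 8 lower genes of smallest unadjusted p among those whose libraries do not overlap, the 10 narrowest intervals, the 5 genes of largest range within a genotype at 10 CPM or more, and of each list the 2 most abundant and the 2 of smallest p. Of the genes picked per list the text names a part, chosen after their values were seen, and Cbr1, Clic6, Gfi1b, Pou5f1, Sox2 and Nanog had too few counts for a test. A planned choice by smallest adjusted p was not made, since nearly all genes shared the smallest value. Further genes were named after their values were seen: the protocadherin entries, the cell type markers at low counts and the 3 genes called for P2-CTCF-KO. Of the 10 narrowest intervals, 1 gene is not reported here.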

Additional observations from a re-analysis of the deposited data

Results flagged for a closer look

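Igf2 measured 70.8 CPM in HPCs of wild-type clone B9.3, far from the other 3 wild-type HPC libraries (2.20 to 6.08 CPM), 1 of which came from the same clone. The cut-off that flagged it is passed by chance in about 1 in 20 groups of independent, normally distributed values. Igf2 was among the genes picked for a large range in mesoderm, so this rate may not apply. Sf3b3, a splicing factor gene, was higher in all 3 P1-CTCF-KO libraries than in any wild-type library in mesoderm and lower in all 3 in HPCs (log2 fold change -0.45 ± 0.26 SE in HPCs). The difference of its log2 fold changes between the stages was 0.58, which did not pass edgeR's quasi-likelihood test (adjusted p = 0.999). Across all genes, a fit of 21 libraries called 0 of 9170 genes for a difference of the P1-CTCF-KO effect between the stages, with 306 at an unadjusted p under 0.05. That fit took all libraries as independent, although clones recur at both stages and some gave more than 1 HPC library.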

How the results depend on the processing

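No paired analysis was possible because P1-CTCF-KO and wild-type mesoderm share no clone names. The count of changed genes stayed at 0 under all 14 alternatives tried, DESeq2 included. The number of genes excluding a 2-fold change ran from 4089 to 5866, and leaving out 1 library gave 4089 to 4541. The number excluding a 1.5-fold change fell from 1460 to 810 with DESeq2 intervals, 840 with E7.1 and E7.2 summed, and 0 with the adjusted equivalence test. Leaving out 1 library gave 674 (without E7.1) to 1032 (without B9.3), and it moved the count by over 1.5 times for each library other than B9.3 (882 without C6.1, 764 without C8.1, 748 without E7.2, 941 without E9.1). The P2-CTCF-KO count moved from 3 to 166 with DESeq2 and 431 with no filter, and the count between P1-CTCF-KO and P2-CTCF-KO from 0 to 98 and 267, both added after seeing the data. The median of the streak list ran from -0.77 (without E7.2) to 1.39 (without C6.1), and was -0.20 without B9.3. That of the hemato-endothelial list ran from -0.57 (without E9.1) to 1.24 (without B9.3), was 0.29 without E7.2, and 0.11 with E7.1 and E7.2 summed. The median of the 10 to 50 kb class ran from 0.029 (without E9.1) and 0.031 (without E7.2) to 0.068 with 1 library left out, that of the class over 200 kb from -0.37 to -0.21, that of the class up to 10 kb from 0.029 (without E9.1) to 0.17, and that of the 50 to 200 kb class from -0.12 to -0.049 (without B9.3). With all tested genes the median distance was 0.635 between genotypes and 0.685 within them, in place of 1.45 and 1.63. Over 47 named genes, 561 alternative values included 40 changes of sign and 20 shifts, in 17 genes, of at least the standard error of the log2 fold change. The cause of these shifts was not tested. At 329588 counts over ordinary genes, C6.1 limits the precision of the wild-type mean.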
